A study of Mus musculus with 24 samples.

Results

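The 78 genes described here encode proteins of the mitochondrial ribosome. They were chosen by name alone, as every row of the table whose symbol begins with Mrpl or Mrps followed by a digit, and they are 78 of 16118 genes. The names split into 49 Mrpl genes and 29 Mrps genes, spread over 17 chromosomes. Poly(A) RNA of a fat depot under the skin, the inguinal white adipose tissue, had been sequenced from 24 mice in 6 groups of 4. Males and females were taken at postnatal day 21 (p21), or at day 28 (p28) after either of a pair of weaning regimes. Standard weaning (SW) animals had been separated from the mother at day 21, and delayed weaning (DW) animals had been kept with her. The labels give no strain, genotype or diet, and each library has its own animal number, with the litter not given. The p21 libraries have titles that name day 28, and were placed at day 21 by their other labels. All p21 labels also carry SW, although these animals were taken at day 21.

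The mitochondrial ribosome translates the few mRNAs encoded in mitochondrial DNA, all of which code for subunits of the respiratory chain and the ATP synthase. Its RNA comes from the mitochondrial chromosome, whereas every one of its proteins is encoded in the nucleus, made in the cytosol and imported. Some of these proteins have counterparts in bacteria, and others exist only in mitochondria. In adipose tissue the machinery is best known from thermogenic fat cells, which are rich in mitochondria, and white fat cells hold fewer of them. In a name, Mrpl stands for the large and Mrps for the small subunit, with exceptions known from structures: Mrps30 and Mrps18a sit in the large subunit, and Mrps36 belongs to the 2-oxoglutarate dehydrogenase complex. Counted that way, 51 members belong to the large and 26 to the small subunit.

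Promoters of this family are known for binding sites of the transcription factors NRF1, GABPA of the ETS family, and YY1. RefSeq promoter windows of GRCm38.p6, from 250 bases before to 50 bases after a start, were found for 69 members (75 windows) and searched on both strands. The NRF1 core GCGCATGCG was in 7 member windows (9.33%), against 2.96% of the windows of all tested genes. The ETS core CCGGAAG was in 26 (34.7%), against 14.5%, and the YY1 motif AAGATGGCG in 8 (10.7%), against 2.38%. Mrpl17, Mrpl22 and Mrps18b are printed because their windows held both the NRF1 and the ETS letters. Each run gives the 250 bases before the start, 5′ to 3′ on the strand of the gene, with the matches in capitals. The windows lie at chr7:105811088-105811337 (minus strand), chr11:58171414-58171663 (plus strand) and chr17:35916441-35916690 (minus strand). The ETS match of Mrps18b lies after its start and is not in the printed stretch.
Mrpl17: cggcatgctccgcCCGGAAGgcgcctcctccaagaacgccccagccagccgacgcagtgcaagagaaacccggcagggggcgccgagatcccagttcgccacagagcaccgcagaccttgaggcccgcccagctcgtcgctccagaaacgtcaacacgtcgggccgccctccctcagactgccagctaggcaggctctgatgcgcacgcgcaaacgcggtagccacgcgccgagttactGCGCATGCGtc
Mrpl22: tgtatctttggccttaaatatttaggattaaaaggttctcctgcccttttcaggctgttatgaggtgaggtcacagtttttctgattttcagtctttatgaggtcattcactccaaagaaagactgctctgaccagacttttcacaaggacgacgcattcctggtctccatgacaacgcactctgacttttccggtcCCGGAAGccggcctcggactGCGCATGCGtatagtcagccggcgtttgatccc
Mrps18b: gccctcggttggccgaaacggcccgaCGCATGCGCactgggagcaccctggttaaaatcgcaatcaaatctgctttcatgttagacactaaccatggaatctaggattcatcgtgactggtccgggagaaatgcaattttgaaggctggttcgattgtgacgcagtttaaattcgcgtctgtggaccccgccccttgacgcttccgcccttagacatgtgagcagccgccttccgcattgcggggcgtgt

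In the Mrpl17 window the ETS letters stand at the far end and the NRF1 letters next to the start. In the Mrpl22 window both stand close to the start. A match of letters is a description of the window only. Between p21 males and p28 DW males the median change was -0.43 over the 36 members with any of the motifs and -0.41 over the 33 without. For the NRF1 letters alone it was -0.26 over 7 members with them (2 called) and -0.43 over 62 without (30 called), and these differences were not tested.

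All values below are normalised read numbers, the reads of a gene divided by 1 factor per library. Recovered reads ranged from 57600711 to 302145813 per library, and no member had fewer than 259 reads in any library, so counting error was small and all 78 members passed the filter on low values. All 8 white adipocyte markers were present in every animal. Some libraries stood apart. The p21 male 53 had the fewest reads and detected 14054 genes, against 15859 to 15977 in the other p21 males. Among DW females, genes rich in GC were low in animals 82 and 83 and high in 76 and 77. The Spearman correlation across genes between GC content and a gene's deviation from its mean was -0.418 and -0.585 in the former and 0.420 and 0.307 in the latter. In p21 male 37 it was -0.532, against -0.0118 to 0.210 in the other p21 males. Skeletal muscle markers also differed widely, with a summed value of 4.16 to 7042 over the 24 animals. Counts of called members are given with and without p21 males 37 and 53 and DW females 82 and 83, and single calls only in part.

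Mean levels of the members over all animals ran from 4.82 for Mrps24 to 133 for Mrpl42. After Mrpl42, a large subunit protein, the highest means were 84.2 for Mrps5, a small subunit protein of bacterial type, and 81.2 for Mrpl24 of the large subunit. Mrps24, Mrpl33 (6.98) and Mrps18c (7.15) had the lowest. These are levels per gene and not per length. Per kilobase of transcript, the mean level was highest for Mrpl42 (201.8) and Mrps21 (190.5) and lowest for Mrpl57 (2.63). Mrpl24, Mrpl45 and Mrpl10 varied least between animals of a group, with an SD of log2 values of 0.104, 0.109 and 0.115. Mrpl12, Mrpl34 and Mrps12 varied most, at 0.460, 0.455 and 0.417.

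**Figure D1:**
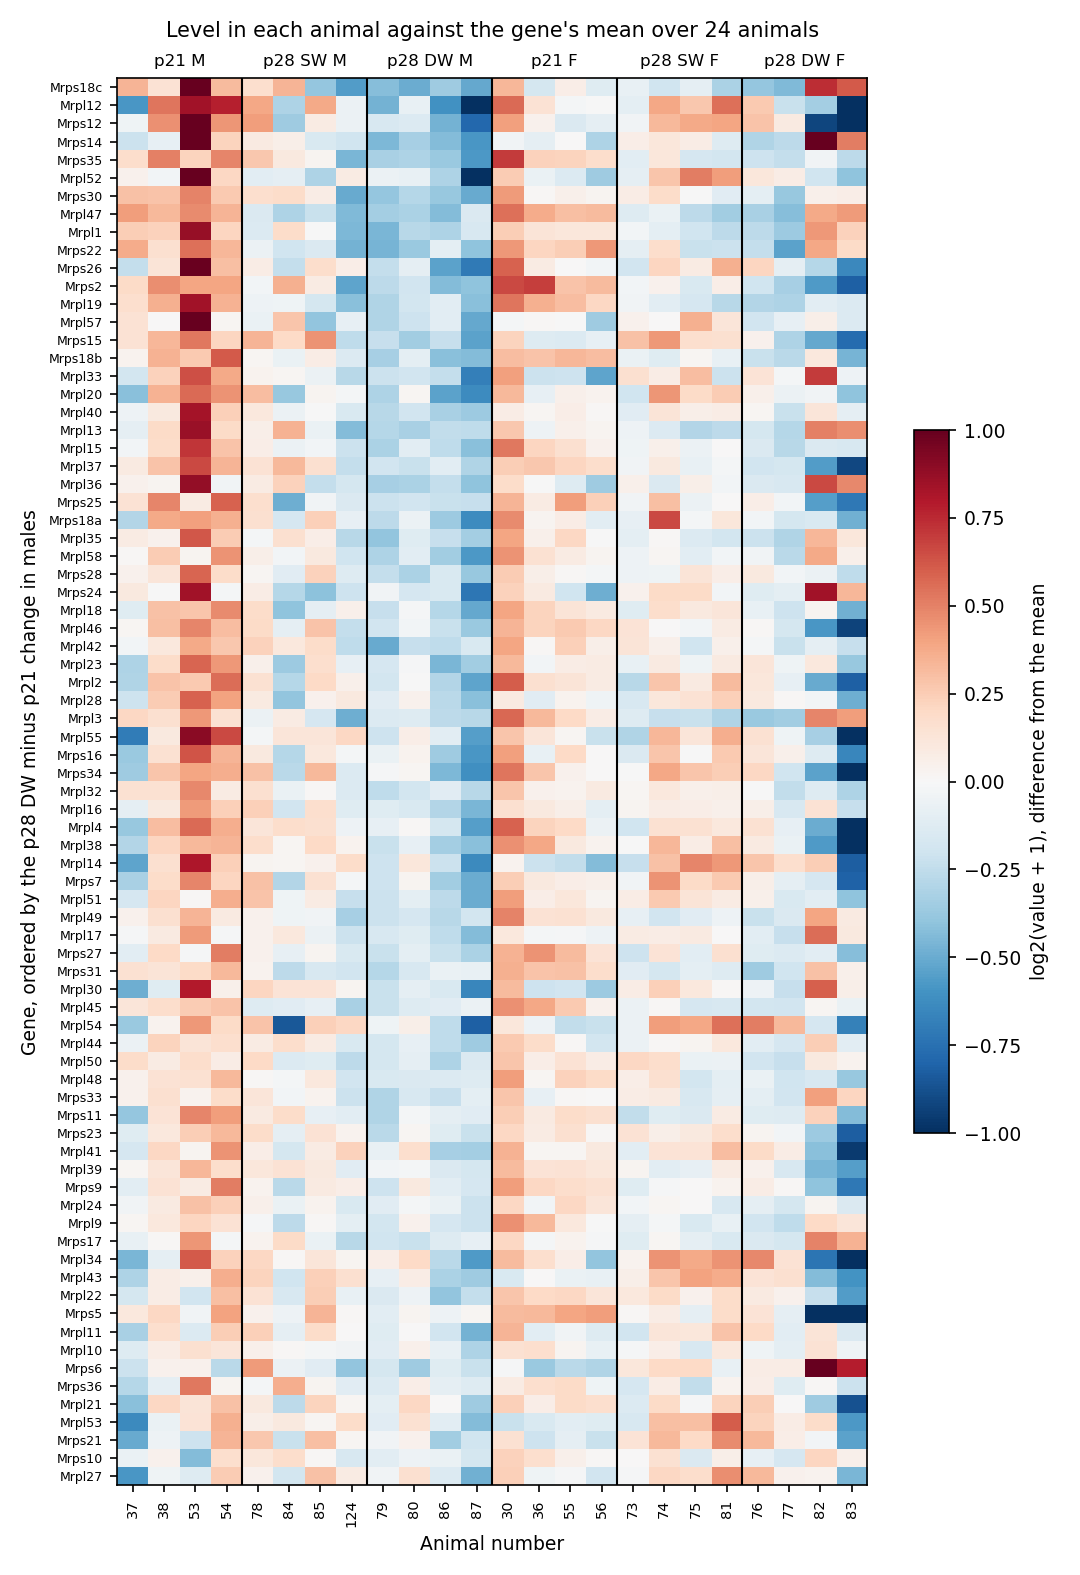
Level of each of the 78 members (rows, ordered by the change from p21 to p28 DW males) in each of the 24 animals (columns, grouped by age, weaning and sex), as the difference of log2(value + 1) from the gene's mean, from -1 (blue) to 1 (red). Most rows are red in p21 males 38, 53 and 54 and blue in DW males, p21 male 37 lies near the mean (median -0.07), p21 male 53 has the highest summed share of all animals (0.453%), and DW females 82 and 83 differ from DW females 76 and 77 in many rows.

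The largest change in the family was a fall between p21 males and p28 males that had stayed with their mother. 37 of 78 members were called lower and none higher (limma on log2(value + 1), Benjamini-Hochberg adjusted p under 0.05 over 16005 genes), where 6.1% of all genes were called lower. The median change of the members was -0.43, against 0.02 over all genes, and 77 of 78 changes were negative. In 40 members all 4 DW males lay below all 4 p21 males, as did 10.7% of all genes. The fall covered both subunits, with 25 of 51 large subunit members called (median -0.42) and 12 of 26 of the small subunit (median -0.43). Among members of bacterial type 18 of 46 were called (median -0.43), and among mitochondria-specific members 19 of 31 (median -0.41). Fewer cells that express these genes and less RNA per cell cannot be told apart in whole tissue.

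In the large subunit, Mrpl19 (chromosome 6) had values of 21.0, 24.0, 34.1 and 24.0 in p21 males and of 14.9, 16.2, 17.2 and 13.7 in DW males. The groups did not overlap, and the change was -0.68 ± 0.126 (SE; limma adjusted p = 0.00157). Mrpl47 (chromosome 3), which lies near the exit of the tunnel for the new protein chain, had values of 24.7, 23.1, 25.6 and 23.4 in p21 males. In DW males it had 14.1, 14.5, 13.2 and 16.3, again with no overlap, a change of -0.70 ± 0.150 (limma adjusted p = 0.0042). Mrps30 (chromosome 13), a large subunit protein despite its name, went from 33.1, 33.0, 38.3 and 32.4 to 20.3, 21.9, 20.5 and 18.7. Every DW male was lower than every p21 male, and the change was -0.72 ± 0.137 (limma adjusted p = 0.00186). Mrpl15, Mrpl32 and Mrpl40 fell by 0.56, 0.42 and 0.57 on the log2 scale. Mrpl12, which forms the flexible stalk that recruits translation factors, had the largest change in the large subunit, -0.94 ± 0.299 (limma adjusted p = 0.0387). Its groups overlapped, because p21 male 37 was at 35.5 while the other p21 males were at 78.3, 97.0 and 92.9, and DW males were at 38.5, 51.1, 34.95 and 25.7.

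In the small subunit, Mrps18b (chromosome 17) had values of 27.9, 34.7, 32.7 and 42.0 in p21 males and of 21.4, 25.2, 20.0 and 19.8 in DW males. The change was -0.64 ± 0.116 (limma adjusted p = 0.00145), the smallest p of the family here. Mrps35 (chromosome 6), a mitochondria-specific protein, went from 31.6, 39.9, 32.6 and 39.5 to 22.1, 22.3, 21.3 and 18.4, a change of -0.74 ± 0.139 (limma adjusted p = 0.00167). Neither gene overlapped between the groups. Mrps2 (chromosome 2), of bacterial type, went from 69.8, 84.6, 80.6 and 80.6 to 50.9, 53.2, 45.0 and 46.0, also without overlap, a change of -0.68 ± 0.151 (limma adjusted p = 0.005). Mrps22 fell by 0.69. The largest fall of any member was that of Mrps18c, by 1.02 (SE 0.277, limma adjusted p = 0.0175), with p21 males at 8.66, 7.44, 20.5 and 8.55 and DW males at 4.71, 4.43, 4.98 and 4.38. Male 53 held the highest of these values, and the change of Mrps18c without this animal is not given here. Mrps12, a protein of the decoding site, fell by 0.87. Mrps21, Mrps10 and Mrpl27 lay at the other end, with changes of -0.03, -0.03 and 0.00, none of them called.

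Several other measures moved with this fall. Of 8 skeletal muscle markers 7 were called higher in DW males than in p21 males, with a summed value of 329 to 7042 against 5.04 to 555, and Myh4 was the only one at 0 in any animal. With muscle and mammary marker scores as covariates 7 members were called and their median change was -0.40, and the lower calls over all genes went from 977 to 236. Of 7 erythroid markers 5 were called lower, with sums of 181 to 393 against 578 to 2157. Ucp1 alone of 7 thermogenic markers was called lower, and the sums were 531 to 894 against 652 to 1741. Of 8 lymphocyte markers 4 were called lower. Of 8 white adipocyte markers Adipoq (0.83, limma adjusted p = 0.000683) and Cidec (1.00, limma adjusted p = 0.0087) were called higher, while 3 changes were negative. Their sums were 22823 to 25753 in DW males against 17287.5 to 20272 in p21 males. Of 8 proliferation markers Mki67 (0.66) and Prc1 (0.75) were called higher, and 1 change was negative. Transcript length was related to the deviation from the mean across genes by a Spearman correlation of 0.0555 to 0.322 in DW males and of -0.184 to 0.196 in p21 males. After correction of the values for transcript length and GC content 47 members were called (median -0.45), beside 1388 lower calls over all genes. Without p21 male 53 and SW male 84, 18 were called (median -0.34), beside 598 over all genes. Without p21 male 37, 48 were called (median -0.56). Leaving out p21 male 38, 53 or 54 gave 24, 18 and 19 called members, and leaving out DW male 79, 86 or 87 gave 22, 19 and 17. The part of erythroid, thermogenic, lymphocyte, white adipocyte and proliferation RNA in the fall was not tested.

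In females kept with their mother the family also fell from p21, with fewer calls. 15 members were called lower and 1 higher by the same limma fit, where 6.16% of all genes were called lower. The median change was -0.27, against 0.00 over all genes, and 61 of 78 changes were negative. In 18 members all DW females lay below all p21 females, as did 7.61% of all genes. With only these groups in the model 2 members were called, and the calls over all genes went from 1938 to 495. Of the large subunit 8 of 51 members were called lower, and of the small subunit 7 of 26. Whether the fall differed between the sexes was not tested for this comparison.

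Mrps2 had the smallest p among these. It had values of 97.2, 99.1, 74.8 and 76.3 in p21 females and of 53.0, 48.3, 40.8 and 34.2 in DW females. The groups did not overlap, and the change was -0.97 ± 0.151 (limma adjusted p = 0.000315). Mrpl37 (chromosome 4), a mitochondria-specific protein of the large subunit, had 69.5, 70.6, 67.8 and 65.9 in p21 females and 50.9, 51.5, 39.2 and 30.6 in DW females. Each DW female was lower, by a change of -0.69 ± 0.140 (limma adjusted p = 0.00284). Mrps18b had 33.8, 33.2, 34.4 and 33.8 in p21 females, the tightest group of this gene, and 23.1, 22.2, 29.1 and 19.3 in DW females. Its change was -0.52 ± 0.116 (limma adjusted p = 0.0053). Mrpl46 fell by 0.68, Mrpl39 by 0.46 and Mrpl48 by 0.42, all 3 of the large subunit. Mrps27, a small subunit protein of the pentatricopeptide repeat type, fell by 0.51.

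Mrps5 and Mrps6 were split by the DW females that stood apart. Mrps5 (chromosome 2) had values of 101, 102, 107 and 109 in p21 females. In DW females 76 and 77 it was at 89.7 and 76.4, and in DW females 82 and 83 at 34.5 and 30.4. The change over all 4 was -1.001 ± 0.222 (limma adjusted p = 0.00526), and without females 82 and 83 it was -0.34 and not called. Mrps6 (chromosome 16), a small subunit protein of bacterial type, was the only member called higher in any comparison with p21. It had 14.8, 11.3, 12.2 and 11.9 in p21 females, 15.8 and 15.7 in DW females 76 and 77, and 30.7 and 26.4 in DW females 82 and 83. The change was 0.72 ± 0.183 (limma adjusted p = 0.0129). Without females 82 and 83, 11 members were called, all lower, beside 653 lower calls over all genes. Mrps6 was not among them. The same animals set the opposite relations to GC content given above. With values corrected for transcript length and GC content, 27 members were called lower and 1 higher, beside 1278 and 1227 over all genes. Without DW female 76, 25 were called. Among the marker lists, 7 of 7 erythroid markers were called lower in DW than in p21 females (sums of 179.7 to 577 against 881 to 1223), 2 of 7 thermogenic markers lower and 6 of 8 proliferation markers higher. Mammary markers were higher in all 8, with Cldn7 (0.70) and Krt19 (1.79) called and sums of 64.4 to 172 against 17.5 to 69.04. The part of the erythroid, thermogenic and proliferation markers in the fall was not tested.

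**Figure D2:**
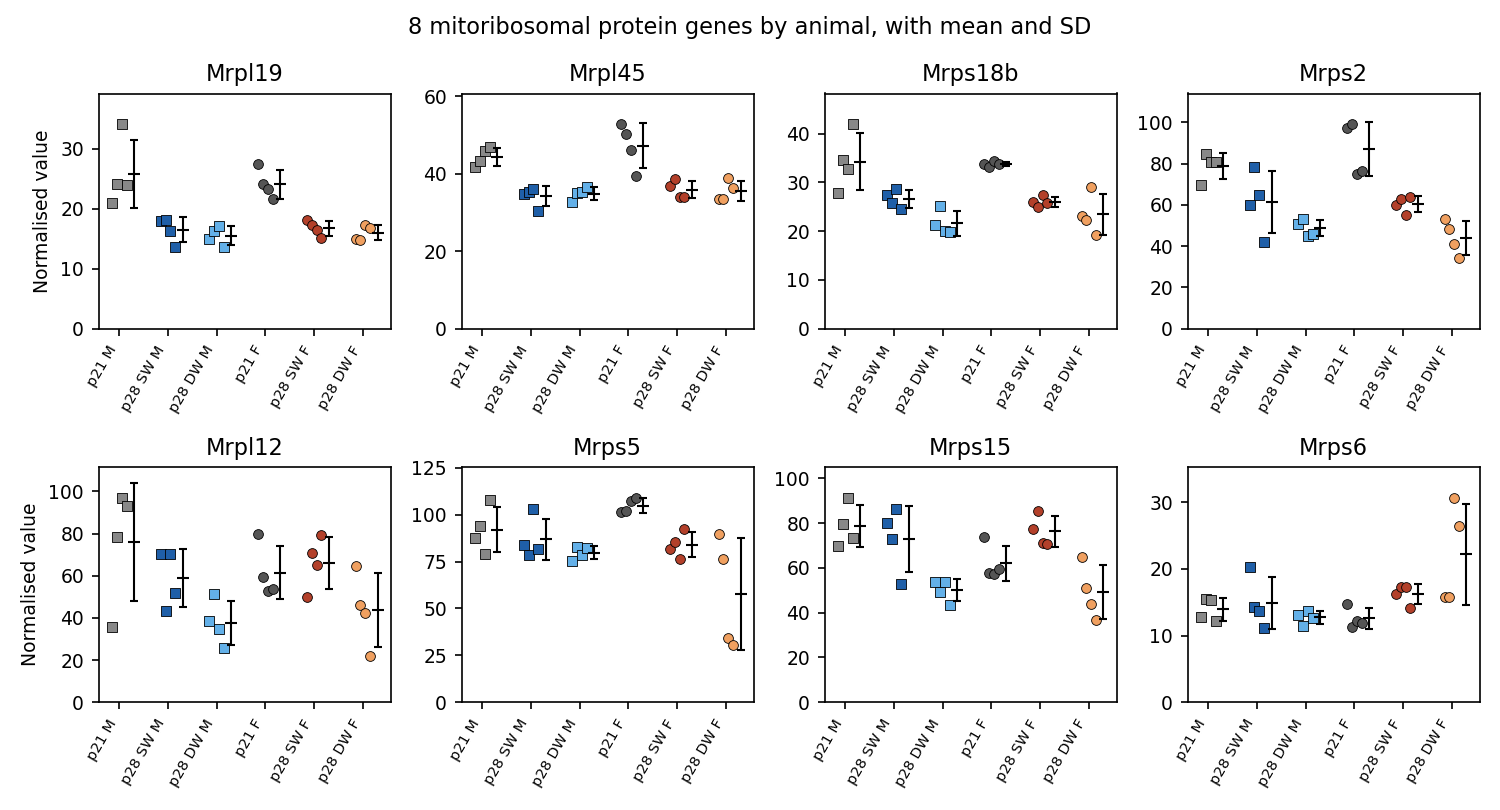
Normalised value of 8 members in each animal, by group, with group means and SD (n = 4 per group). Mrpl19 and Mrpl45 are lower in all p28 groups than at p21, and Mrps5 and Mrps6 split the DW females into a high and a low pair. Mrps15 has a lower mean in DW than in SW animals of both sexes, with overlap in males.

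After standard weaning few members were called against p21. In males 5 members were called lower and none higher (limma, as above), where 4.97% of all genes were called lower. The median change was -0.20, against 0.01 over all genes, and 67 of 78 changes were negative. In 9 members all SW males lay below all p21 males, as did 7.69% of all genes. The called members were Mrpl19 (-0.60), Mrpl47 (-0.67), Mrpl45 (-0.37), Mrps22 (-0.57) and Mrps31 (-0.34). Mrpl19 had 17.9, 18.0, 16.3 and 13.6 in SW males, all below the lowest p21 male at 21.0. Muscle markers moved here too, with 7 of 8 called higher and sums of 443 to 6644 in SW males. With the marker scores as covariates 3 members were called, while calls over all genes went from 1901 to 395. 5 of 7 erythroid and 4 of 8 proliferation markers were called lower, and their part was not tested. Leaving out p21 male 37 gave 8 called members, and leaving out p21 male 53 or SW male 124 gave 3 each. When all libraries were scaled to the same total outside the mitochondrial chromosome, 23 were called. The share of called genes that were higher, over all genes, went at the same time from 1105 of 1901 to 797 of 2620.

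In females 7 members were called lower after standard weaning and none higher, where 4.23% of all genes were called lower. The median change was -0.07, against 0.01 over all genes, and 51 of 78 changes were negative. In 19 members all SW females lay below all p21 females, as did 10.1% of all genes, and in 1 they lay above. Mrpl45, Mrpl19, Mrpl47, Mrps31, Mrps2, Mrps18b and Mrpl3 were called, with changes of -0.38, -0.50, -0.59, -0.40, -0.51, -0.37 and -0.51. Mammary epithelial markers moved with this comparison, 7 of 8 being called higher, with sums of 219 to 298 in SW females against 17.5 to 69.04 at p21. 6 of the 8 (Cldn7, Krt19, Elf5, Krt14, Krt8 and Krt5) were at 0 in some animal of the study. All 7 erythroid markers were lower, 3 of them called, and all 8 muscle markers were higher, with none called by limma and 5 at an unadjusted p under 0.05 (median 3.35). The part of the erythroid markers was not tested. With muscle and mammary marker scores as covariates none of the 78 members was called by limma, 10 having an unadjusted p under 0.05. In that fit the lower calls over all genes went from 677 to 54, so the loss was not particular to the members. edgeR and DESeq2, both without those covariates, called 8 each, beside 1472 and 1995 calls over all genes. Leaving out p21 female 30 gave 3 called members, and leaving out p21 female 36 or SW female 73 or 75 gave 4 each. The sex difference of the change after standard weaning was tested as an interaction. None of the members was called by limma (2 at an unadjusted p under 0.05, and 0 by edgeR and DESeq2), where 1.03% of all genes were called in either direction.

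Mrpl19 and Mrpl45 were called lower in all 4 comparisons with p21, which share their p21 animals within a sex. Mrpl45 (chromosome 11), a protein near the tunnel exit that ties the ribosome to the inner membrane, had 41.8, 43.2, 45.7 and 46.8 in p21 males. It had 34.9, 35.3, 36.0 and 30.4 in SW males and 32.7, 34.9, 35.2 and 36.6 in DW males. In females it had 52.7, 50.3, 46.1 and 39.4 at p21, 36.7, 38.5, 34.0 and 34.0 after SW, and 33.5, 33.4, 38.8 and 36.4 after DW. Each p28 animal lay below each p21 animal of its sex, and SW and DW overlapped. The changes were between -0.34 and -0.39, with limma adjusted p from 0.0058 to 0.0142. Of the members called lower in DW males and in DW females, 11 were the same, which is 29.7% of the 37 in males and 73.3% of the 15 in females. Over the 4 comparisons 42 members were called lower at least once and 36 never. Mrps36, the member that is not a ribosomal protein, was among the 36, with changes between -0.18 and 0.02.

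**Figure D3:**
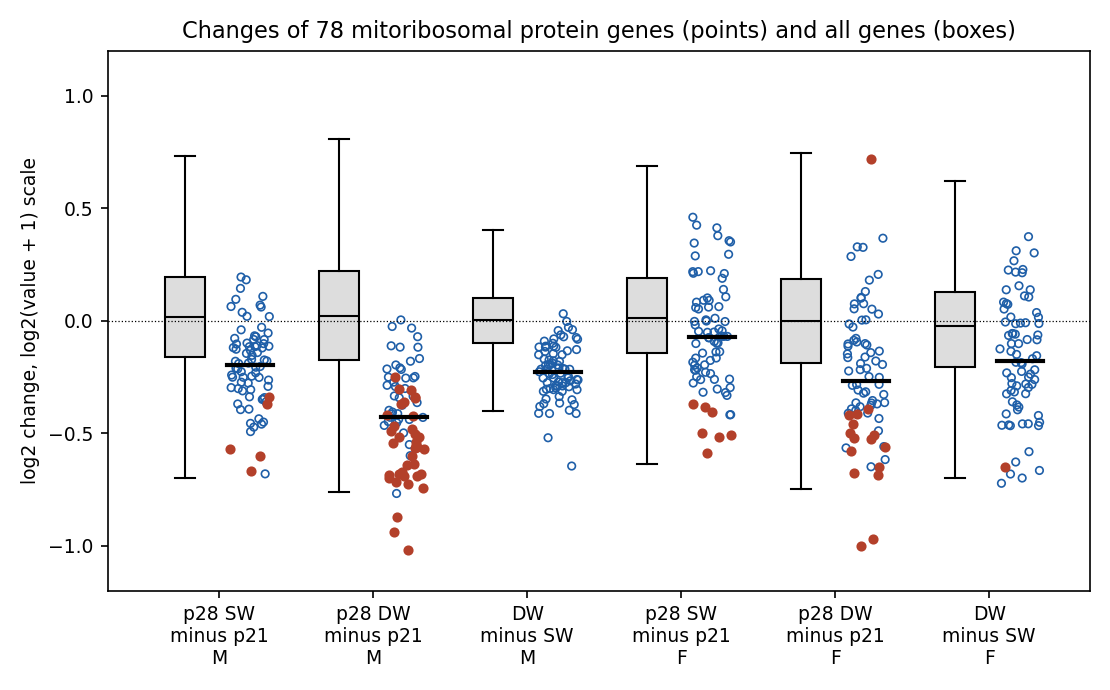
log2 change of each of the 78 members (points, filled red where called by limma at an adjusted p under 0.05, with the median as a bar) beside all tested genes (boxes: median, quartiles and whiskers of 1.5 times the quartile range, points beyond them not drawn), for 6 comparisons. The members lie lowest for p28 DW minus p21 in males (median -0.43), and in the DW minus SW comparison of males 77 of 78 points lie below 0 with none called.

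The direct comparison of the weaning regimes at p28 showed a small and uniform shift in males and few calls in either sex. In males 77 of 78 members were lower in DW than in SW animals, against 48.9% of all genes, with a median of -0.23 against 0.00. None of the 78 was called by limma, edgeR or DESeq2, and 12 had an unadjusted p under 0.05 by limma, as did 1110 of all 16005 genes. Of all genes, 0.025% were called lower. In 5 members all DW males lay below all SW males, as did 3.4% of all genes. Mrpl12 had the largest difference, -0.65 ± 0.299, with SW males at 70.5, 43.2, 70.3 and 51.7 and DW males at 38.5, 51.1, 34.95 and 25.7, which overlap. Proliferation markers were higher in DW males, 4 of 8 being called, with sums of 196 to 259 against 83.0 to 124. Of 7 thermogenic markers 6 were lower (median -0.52), with Elovl3 called (-2.13, limma adjusted p = 0.0068) and sums of 531 to 894 against 844 to 1426. The part of both lists was not tested. The Spearman correlation of transcript length with the deviation from the mean was 0.0555 to 0.322 in DW males and -0.150 to 0.0498 in SW males, without overlap. The part of this relation in the shift of the members was not tested. The next largest differences after Mrpl12 were Mrps15 at -0.52 ± 0.153 (limma adjusted p = 0.265) and Mrps12 at -0.41. Since none was called here, the 37 calls against p21 in DW males and the 5 in SW males do not show a difference between the regimes.

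In females 58 of 78 members were lower in DW than in SW animals, with a median of -0.18 against -0.02 over all genes. 1 member was called lower, where 0.812% of all genes were. In 7 members all DW females lay below all SW females, as did 3.52% of all genes. The called member was Mrps15 (chromosome 4), a small subunit protein of bacterial type. It had 77.5, 85.6, 71.2 and 70.8 in SW females and 65.01, 50.9, 44.1 and 36.7 in DW females, a difference of -0.65 ± 0.153 (limma adjusted p = 0.038) without overlap. In males it had 80.2, 72.7, 86.4 and 52.7 after SW and 53.7, 49.4, 53.5 and 43.2 after DW, which overlap by SW male 124 alone. The call in females was lost without any 1 of SW females 73, 74, 75 and 81 or DW females 82 and 83, with values between -0.52 and -0.68. Without both DW females 82 and 83 the difference was -0.40. Leaving out DW female 76 or 77 gave 13 and 5 called members. Mrpl34, Mrps12 and Mrps5 had the largest differences, -0.72, -0.70 and -0.68, and were not called. Proliferation markers were higher in DW females here too, 7 of 8 being called. Mammary markers were lower in all 8 (Cldn7 called), with sums of 64.4 to 172 against 219 to 298. Muscle markers were lower in all 8 (none called by limma, 4 at an unadjusted p under 0.05; median -3.26), with sums of 4.16 to 2035 against 370 to 3300. Of the thermogenic markers Elovl3 was called lower (-1.50). With muscle and mammary scores as covariates Mrps15 was at -0.54 and not called, while calls over all genes went from 204 to 9. The part of the proliferation and thermogenic markers was not tested. The interaction of sex and weaning called none of the members by limma (2 at an unadjusted p under 0.05, and 0 by edgeR and DESeq2), where 0.0187% of all genes were called in either direction.

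Between the sexes few members were called within a group. At p21 none of the members was called by limma (2 at an unadjusted p under 0.05), where 0.356% of all genes were called in either direction, and the median difference of females minus males was -0.03. In SW animals none was called (0 at an unadjusted p under 0.05), where 3.54% of all genes were, with a median of 0.05. edgeR and DESeq2 called 0 at p21 and 0 in SW animals. All 8 mammary markers were called higher in females in SW and in DW animals. In DW animals 1 member was called, where 2.46% of all genes were. The median there was 0.10, against -0.01 over all genes, and 58 of 78 differences were positive. An unadjusted p under 0.05 was found for 14 members, beside 3158 of all 16005 genes. In 5 members all DW females lay above all DW males, as in 897 of all genes. With muscle and mammary scores as covariates, calls over all genes in DW animals went from 394 to 5. The member called in the main fit was Mrps6, with 13.1, 11.4, 13.7 and 12.6 in DW males and the values given above in DW females. Its difference was 0.70 ± 0.183 (limma adjusted p = 0.0417). Without DW females 82 and 83 it was 0.29 and not called. The call was also lost without any 1 of DW males 79, 80, 86 and 87 or DW females 82 and 83, whereas leaving out DW female 76 or 77 gave 4 and 6 called members.

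The 13 genes on the mitochondrial chromosome, whose mRNAs these ribosomes translate, were higher in median after standard weaning than at p21 and lower in median after delayed than after standard weaning. They took 13.2% to 25.5% of an animal's summed values. In males the share was 16.6%, 13.2%, 19.8% and 20.9% at p21, 23.7%, 25.4%, 25.5% and 23.9% after SW and 17.7%, 18.3%, 20.1% and 23.3% after DW. SW males lay above all p21 males, by 7.03 percentage points, and above all DW males, who were lower by a difference of -4.78. Each of these gave p = 0.0286 in an exact two-sided permutation test, the smallest that 4 against 4 animals allow, and 0.129 after Benjamini-Hochberg adjustment over 9 tests. In females the share was 21.2%, 21.2%, 20.8% and 16.6% at p21, 21.0%, 24.2%, 20.3% and 25.1% after SW and 23.6%, 19.2%, 13.2% and 13.7% after DW, with overlap between all groups. The other 7 tests gave exact permutation p from 0.114 to 0.429, so none of the 9 passed after adjustment. DW females 82 and 83 had the lowest shares of their group here as well.

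The summed members took a far smaller share of the values outside the mitochondrial chromosome. It was 0.320%, 0.379%, 0.453% and 0.414% in p21 males, 0.336%, 0.295%, 0.323% and 0.285% in SW males and 0.272%, 0.292%, 0.262% and 0.239% in DW males. All DW males lay below all p21 males, and SW males overlapped both. In females it was 0.403%, 0.353%, 0.368% and 0.339% at p21, 0.319%, 0.336%, 0.333% and 0.313% after SW and 0.320%, 0.288%, 0.327% and 0.276% after DW. All p28 females lay below all p21 females. In SW males the mean share of the mitochondrial chromosome was the highest of the 6 groups (24.6%), while their members' mean share, 0.310%, was below the 0.391% of p21 males. In DW females both shares were below those at p21, at 17.4% against 19.9% and 0.303% against 0.366%.

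**Figure D4:**
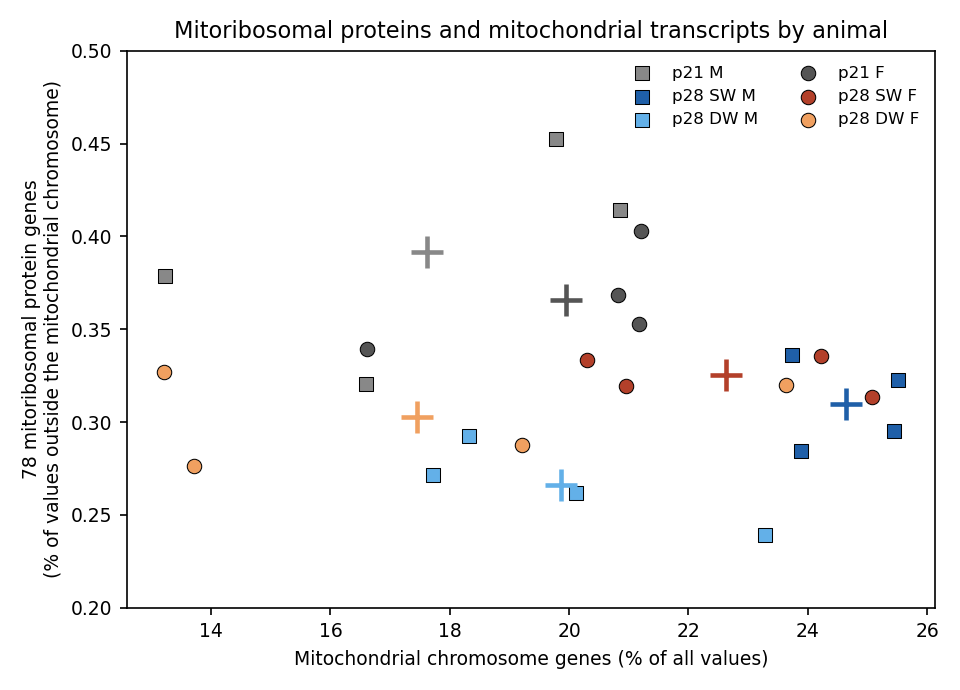
Share of the 78 members in the values outside the mitochondrial chromosome (vertical axis, from 0.2%) against the share of the 13 mitochondrial genes in all values (horizontal axis), 1 point per animal and a cross at each group mean. Of the group means, those at p21 lie highest (0.391% in males and 0.366% in females), that of DW males lowest (0.266%) and that of SW males farthest to the right (24.6%), while single animals of different groups overlap.

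Gene by gene, 3 of the 13 mitochondrial genes were called higher in SW males than in p21 males, where 1105 of all 16005 genes were. Of the 13 changes 12 were positive (median 0.80). The called genes were mt-Nd4l, a complex I subunit (1.26, limma adjusted p = 0.0287), and the ATP synthase subunits mt-Atp8 (1.39, limma adjusted p = 0.0346) and mt-Atp6 (0.86, limma adjusted p = 0.0379). These genes overlap neighbours on the same strand, so the authors' counting could split or drop their shared reads. mt-Atp6 had 545, 408, 880 and 741 in p21 males and 943, 1569.8, 1339 and 791 in SW males, which overlap. mt-Atp8 alone was also called higher in DW males (1.28, limma adjusted p = 0.0441), where 1418 of all 16005 genes were. In females none of the 13 was called by limma after SW or DW, with 0 at an unadjusted p under 0.05 in both. In the weaning comparisons limma called none either. At an unadjusted p under 0.05 were 2 in males and 1 in females, beside 1110 and 3019 of all 16005 genes in these comparisons. There 13 of 13 were lower in DW than in SW males (median -0.36, with 5 of 13 not overlapping, beside 3.4% of all genes) and 11 of 13 in females (median -0.50), which is the direction of most members.

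To ask which members follow the mitochondrial share from animal to animal, a slope on that share within groups was fitted for every gene. No member was called by limma, where 0.00625% of 15992 genes were. An unadjusted p under 0.05 was found for 18 members, 17 of them with a positive slope. The number of all genes at that p is not given here. edgeR called 0 members and 1 gene in all. DESeq2 called 4 members, but 1382 genes in all, so those 4 are not a result about the members. The median slope was 0.02 on the log2 scale per percentage point, against 0.00 over all genes. The steepest were those of Mrpl34 (0.09), Mrps5 (0.08, limma adjusted p = 0.0688), Mrpl55 (0.07), Mrps12 (0.07) and Mrpl12 (0.06), and the most negative were those of Mrps6 (-0.05), Mrpl3, Mrps18c, Mrps24 and Mrpl47. DW females 82 and 83 had shares of 13.2% and 13.7%, against 23.6% and 19.2% in DW females 76 and 77. Mrpl34 and Mrps5 were lower, and Mrps6 and Mrps18c higher, in DW females 82 and 83 than in 76 and 77. Without DW females 82 and 83 the slope called 0 genes in all, and the single slopes rest in part on these animals. Leaving out DW male 87 gave 9 called members and leaving out p21 male 38 gave 3. The calls over all genes in these fits are not given here, so these counts are not read as results about the members.

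Lists of other genes of mitochondrial translation held genes called lower against p21 and none called higher. The counts stand beside 4.97% and 6.1% of all genes called lower in SW and DW males and 4.23% and 6.16% in SW and DW females, and several lie near or below those shares. Among 5 ribosome subunits without an Mrp name, 0 and 2 were called lower in SW and DW males and 1 and 1 in SW and DW females, and in SW females 3 of the 5 changes were positive (median 0.07). Ptcd3, a small subunit protein, fell by 0.53 in DW males (limma adjusted p = 0.00421). Among 26 assembly factors and rRNA modifying enzymes, 1 and 3 were called lower in males and 1 and 4 in females. The rRNA methyltransferase Mrm3 went from 8.06, 12.3, 13.9 and 11.5 in p21 males to 5.38, 7.01, 5.01 and 4.20 in DW males, a change of -0.95 ± 0.160 (limma adjusted p = 0.000733). Among 15 translation factors, 3 and 4 were called lower in males and 4 and 6 in females.

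Gfm1, the elongation factor that moves the ribosome along the mRNA, had 105, 112, 115 and 118 in p21 females, 77.8, 66.4, 62.1 and 76.7 in SW females and 66.3, 66.1, 73.3 and 68.4 in DW females. Its changes were -0.67 and -0.71 (limma adjusted p = 3.42e-05 and 7e-05), and DW females 82 and 83 were like their group here. Mtres1, a ribosome rescue factor, had changes of -0.99 in DW males and -0.99 in DW females. Among 22 aminoacyl-tRNA synthetases and related enzymes, 2 and 3 were called lower in males and 4 and 5 in females. Among 16 genes of mitochondrial DNA upkeep, transcription and RNA handling, 4 and 6 were called lower in males and 7 and 5 in females. Ssbp1, which coats single-stranded mitochondrial DNA, fell by 0.40 in SW males and by 0.64 in DW males, while its changes in females were 0.06 and 0.01. Tfam, which packages that DNA and starts its transcription, fell by 0.44 in DW males and was not called in the other comparisons. The helicase Supv3l1, of the mitochondrial RNA degradosome, was called lower in all 4, with changes between -0.32 and -0.50.

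Of 9 regulators of mitochondrial biogenesis none was called in males by limma (2 at an unadjusted p under 0.05 in each comparison with p21), whereas 1 was called lower in SW females and 3 in DW females. The coactivator gene Ppargc1a had 34.2, 25.7, 30.4 and 29.8 in p21 females and 14.7, 16.2, 15.0 and 17.5 in DW females, a change of -0.88 ± 0.196 (limma adjusted p = 0.00548) without overlap. In p21 males it had 24.6, 22.0, 13.4 and 22.6 and in DW males 15.2, 22.0, 30.8 and 24.8, a change of 0.15 (limma adjusted p = 0.646). The related Pprc1 and Ppargc1b fell by 0.74 and 1.05 in DW females. Nrf1, Gabpa and Yy1, which encode the factors whose motifs were searched, had changes between -0.35 and 0.08 in the 4 comparisons, none of them called. In the weaning comparisons none of the genes in any of these lists was called by limma in either sex. At an unadjusted p under 0.05 there were 0 to 2 genes per list in males and 1 to 8 in females. Of all 16005 genes, 1110 in males and 3019 in females were at that p. Between the sexes in DW animals, Lars2 of the synthetase list (2.27, limma adjusted p = 0.0367) and Ssbp1 (0.37, limma adjusted p = 0.0372) were called higher in females. There 2.46% of all genes were called in either direction.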

How the data were processed

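Poly(A) RNA of 24 animals had been sequenced, 4 in each of 6 groups. The deposited table holds, for each gene and animal, a normalised signal that the authors had made by dividing read counts by 1 size factor per library; the submitters' processing notes name fastp, HISAT2, featureCounts, DESeq2 1.38.3 and the mouse build mm10. The annotation, the strand setting of the counting and any filter are not given in the sources used here, so reads of overlapping, antisense or near-identical genes may be shared. The values of every library were whole multiples of 1 step (100% within 0.001 of a whole number), which returned the reads. 90 repeated rows were dropped, leaving 16118 genes.

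Animals were grouped by the age, weaning and sex in the labels. Genes passing edgeR's filter on recovered reads (minimum count 10) were tested with limma 3.58.1 in R 4.3.3 on log2(value + 1), with 1 mean per group over all 24 animals, moderated variance, 18 residual degrees of freedom and Benjamini-Hochberg adjustment over all genes. Fold changes are on that log2 scale, which understates changes of low genes, and positive values mean higher in the group named first. The slope was fitted in the same way with the mitochondrial share as a covariate. Shares were compared with exact permutation tests. The p-values measure the spread between animals, and counting error is not the limit at these depths, although reads without molecular identifiers are not independent molecules. Alternatives were a pseudocount of 0.1, no filter, fits on the compared groups only, scaling outside the mitochondrial chromosome, covariates, left-out animals, and edgeR 4.0.16 and DESeq2 1.42.0 on recovered reads. A correction for transcript length and GC content and a fit without DW females 82 and 83 were chosen after seeing the data. The fits were checked on simulated data.

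The members and all lists were chosen with earlier results of these data known. Members named are those called in a comparison (the 10 smallest p where more than 10), the 3 largest rises and 3 largest falls, the 3 highest and 3 lowest means, the 3 largest and 3 smallest within-group SDs, and the 5 largest and 5 smallest slopes; of other lists, at most 4 called genes per comparison, and any biogenesis regulator or mitochondrial gene. Mrpl17 and Mrpl22 were named for their promoter windows alone.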

Additional observations from a re-analysis of the deposited data

Results flagged for a closer look

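In 13 of 162 sets of 4 values, 1 animal stood apart from the other 3 by Dixon's criterion at the 95% level. Chance gives about 1 in 20 sets, or 8.1. A set holds the values of 1 library measure or 1 member in 1 group of animals. The screen did not take in all members, so the members listed are not a result for the whole family. The mitochondrial share of p21 female 56 was 16.6%, against 20.8% to 21.2% in the other p21 females. The number of genes detected was 14054 in p21 male 53 (others 15859 to 15977), 15497 in SW male 84 (others 15955 to 16042) and 15972 in SW female 74 (others 16053 to 16066). The correlation of GC content with the deviation from the mean reached 0.364 in female 36 of the p21 group, whose other members lay between -0.0384 and 0.00522.

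Among the members screened, p21 female 30 was high for Mrpl39 (64.6, others 56.1 to 57.2), Mrps15 (73.7, others 57.4 to 59.7), Mrps30 (36.5, others 27.1 to 27.9) and Mrps35 (45.95, others 31.7 to 32.9). The p21 male 53 was high for Mrpl32 (37.0, others 27.8 to 29.3) and Mrps30 (38.3, others 32.4 to 33.1). DW female 77 was low for Mrpl15 (31.6, others 34.3 to 34.8), and DW female 83 was low for Mrps27 (18.1, others 22.2 to 22.8).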

How the results depend on the processing

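34 called changes of named members were followed. Against p21 in DW animals they hold only the calls with the smallest p, out of 37 in males and 16 in females. The other calls were not followed singly, so the shares kept here do not describe them. None of the 34 reversed under the other settings. There 328 of 374 recomputed values kept the call and 46 lost it. With 1 animal left out 231 of 272 kept it and 41 lost it. 9 kept the call throughout: Mrpl15, Mrpl19, Mrpl47, Mrps2, Mrps30 and Mrps35 in DW males against p21, Mrpl19 and Mrps2 in DW females, and Mrpl47 in SW males. The cause of the changed counts below was not tested. For fits with 1 animal left out, the calls over all genes are not given here.

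Numbers of called members changed as follows, each beside the calls in either direction over all genes. In the main fit the latter were 204 for DW minus SW in females and 41 in males. They were 1901 and 1860 for SW minus p21 in males and females. For DW minus p21 they were 2395 and 1938, between DW sexes 394 and for the slope 1. When just the groups being compared were fitted, DW minus SW in females had 0 members, beside 1 over all genes. SW minus p21 had 2 and 11 in males and females, beside 822 and 2406. DW minus p21 in females had 2, beside 495, and DW females minus DW males 0, beside 256. With scaling outside the mitochondrial chromosome, DW minus SW in females had 0, beside 168. SW minus p21 then had 23 and 12 in males and females, beside 2620 and 2059. With muscle and mammary scores as covariates, DW minus SW in females had 0, beside 9. In that fit SW minus p21 had 3 and 0 in males and females, beside 395 and 223. DW minus p21 in males had 7, beside 669, and the DW sexes 0, beside 5. Without DW females 82 and 83, DW minus SW in females had 0, beside 7, and the DW sexes 0, beside 294. SW minus p21 had 10 and 12 in males and females in that fit, beside 2979 and 2558. Without p21 male 53 and SW male 84, SW and DW minus p21 in males had 3 and 18, beside 1037 and 1450. Correction for length and GC gave 28 for DW minus p21 in females, beside 2505, and 0 between DW sexes, beside 519. DESeq2 gave 9 for SW minus p21 in males, beside 2562, 2 between DW sexes, beside 848, and 4 for the slope, beside 1382. edgeR and a pseudocount of 0.1 each gave 0 for DW minus SW in females, beside 71 and 63. The run of animal numbers as a covariate gave 1 for DW minus SW in males, beside 38. For the slope that covariate gave 2, beside 503.

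With 1 animal left out, the counts ranged from 0 to 13 for DW minus SW in females, 3 to 8 and 3 to 7 for SW minus p21 in males and females, 17 to 48 and 11 to 25 for DW minus p21, 0 to 6 between DW sexes and 0 to 9 for the slope, and were 0 to 0 for DW minus SW in males, the other sex comparisons and both interactions. The mitochondrial share difference ranged from -5.92 to -4.06 and from -7.26 to -3.78 for DW minus SW in males and females, 5.57 to 8.11 and 1.58 to 3.47 for SW minus p21, 0.788 to 3.33 and -4.57 to -1.09 for DW minus p21, and 0.870 to 3.45, -2.82 to -1.23 and -4.49 to -1.01 for females minus males at p21, SW and DW.

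Over all genes, scaling outside the mitochondrial chromosome changed the split of higher against lower calls from 1105 and 796 to 797 and 1823 for SW minus p21 in males, from 1183 and 677 to 1015 and 1044 in females, and from 1418 and 977 to 1000 and 1766 for DW minus p21 in males. For DW minus SW in females it went from 74 and 130 to 85 and 83, with 63 and 8 by edgeR and 205 and 90 by DESeq2. No paired analysis was possible because the groups share no animal numbers. With 4 animals per group the exact permutation p cannot go below 0.0286.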

Other observations

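For Mrps18c, among the members of the lowest level, and for Mrps14, p21 male 53 and DW females 82 and 83 were high within their groups. Mrps14, a small subunit protein, was at 48.8 in p21 male 53 against 15.9, 17.5 and 21.9 in the other p21 males, and at 40.7 and 26.9 in DW females 82 and 83 against 14.9 and 15.3 in females 76 and 77. Mrps18c was at 20.5 in male 53 against 7.44 to 8.66 in the other p21 males, and at 11.8 and 10.7 in DW females 82 and 83 against 4.84 and 4.63 in 76 and 77. Mrpl34, of the large subunit, ran the other way in DW females, at 21.0 and 16.4 in 76 and 77 and at 8.48 and 4.67 in 82 and 83.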
